A study of Homo sapiens with 6 samples.

Results

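The ERBB genes described here are the 4 receptors of the epidermal growth factor family (EGFR, ERBB2, ERBB3 and ERBB4), 4 of their ligands (AREG, HBEGF, TGFA and NRG4) and 2 inhibitors of the receptors (ERRFI1 and LRIG1). They were taken by symbol from a table of 17758 genes, and all 10 are in it. RNA was measured in 6 libraries of T47D, an oestrogen receptor-positive line from a human breast ductal carcinoma. In 3 libraries the cells carried lentiviral short hairpin RNA against CUEDC1 (shCUEDC1), and in the other 3 a non-targeting hairpin (shNC). The series' design text calls the 3 libraries of a group biological replicates of stably transduced cells, and does not say whether they are separate infections. The p-values therefore cover the spread among these libraries alone, which may be technical. The number of hairpins is not stated, so an effect of the hairpin sequence cannot be told apart from the loss of CUEDC1.

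ERBB receptors are tyrosine kinases of the cell surface that pair when a ligand binds and then feed the RAS to ERK and the PI3K to AKT pathways. ERBB2 binds no known ligand and is the favoured partner of the others, and ERBB3 has little kinase activity of its own but many docking sites for PI3K. AREG, TGFA and HBEGF bind EGFR, HBEGF also binds ERBB4, and NRG4 binds ERBB4. ERRFI1 (MIG6) blocks the kinase domain of EGFR and LRIG1 lowers the amount of ERBB receptors, and both are known as feedback inhibitors. In luminal breast epithelium, AREG is a well known oestrogen-induced gene.

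CUEDC1, the gene the hairpin targets, was at 23.2, 24.4 and 22.8 TPM in shCUEDC1 1, 2 and 3, against 79.4, 80.5 and 70.6 TPM in shNC 1, 2 and 3. TPM is a level scaled to gene length and library size. CUEDC1 fell by 68.9% in shCUEDC1 (edgeR adjusted p = 9.27e-06). The library totals were between 18924327 and 19731609 estimated reads. The library shNC 3 stood apart from the other 2 shNC libraries. Over the 10142 genes that averaged 10 CPM or more (counts scaled to library size), the SD of the log2 difference was 0.246 and 0.266 between shNC 3 and the other shNC libraries, against 0.109 between shNC 1 and 2. It was 0.235 to 0.247 between the shCUEDC1 libraries and shNC 1 or 2. Results are therefore given with shNC 3 and, where it moves them, without it. The fit without shNC 3 was singled out after the libraries had been compared. Its control spread rests on shNC 1 and 2 alone, which lie close together, so its small p-values are given as a description. Luminal epithelial markers were abundant, with a summed level of 14375 to 14754 TPM in shCUEDC1 and 12275 to 14617 TPM in shNC over 10 genes. All 4 endothelial markers were under 0.5 TPM in every library. The summed level of 7 basal or mesenchymal markers was 55.0 to 58.6 TPM in shCUEDC1 and 45.6 to 84.6 TPM in shNC, with KRT5 and CDH2 under 0.5 TPM throughout. The 5 fibroblast markers summed to 5.24 to 7.34 TPM in shCUEDC1 and 1.78 to 4.15 TPM in shNC, with DCN, PDGFRB and THY1 under 0.5 TPM, and the 5 leukocyte markers summed to 8.72 to 9.15 TPM in shCUEDC1 and 8.19 to 9.17 TPM in shNC, with CD3E under 0.5 TPM. The fibroblast sums did not overlap between the groups. No tested marker of any list was called by edgeR. Tested were 10 luminal, 4 basal or mesenchymal, 3 fibroblast, 4 leukocyte and 0 endothelial markers, and the others had too few reads. The part of these markers in the results below was not tested. In bulk RNA, fewer cells that make a transcript cannot be told apart from less of it per cell.

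ERBB2 and ERBB3 rose and HBEGF fell in shCUEDC1 cells. These 3 of the 10 genes passed an adjusted p below 0.05 in edgeR's quasi-likelihood test over 13824 genes, the criterion for a called gene throughout. Over all genes tested, 9.96% were called, 5.19% higher and 4.77% lower in shCUEDC1. The 10 genes were chosen with earlier results of these data known, so their values beside those of all genes are a description. The median log2 change of the 10 genes was 0.16, against -0.004 over all genes. Their median absolute log2 change was 0.30, against 0.12 over all genes. The 2 groups did not overlap in normalised CPM for 8 of the 10 genes, 6 higher and 2 lower in shCUEDC1, where 31.3% of all genes tested did not overlap. In TPM it was 7 genes, since ERBB4 and LRIG1 overlapped on that scale and EGFR did not. Without shNC 3, 7 of the 10 genes were called, 4 higher (ERBB2, ERBB3, ERBB4 and TGFA) and 3 lower (AREG, HBEGF and EGFR), with 28.1% of all genes called in that fit, 14.3% higher and 13.8% lower. None of the 10 genes had an absolute log2 change above 1, the size the study's own gene list required.

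**Figure D1:**
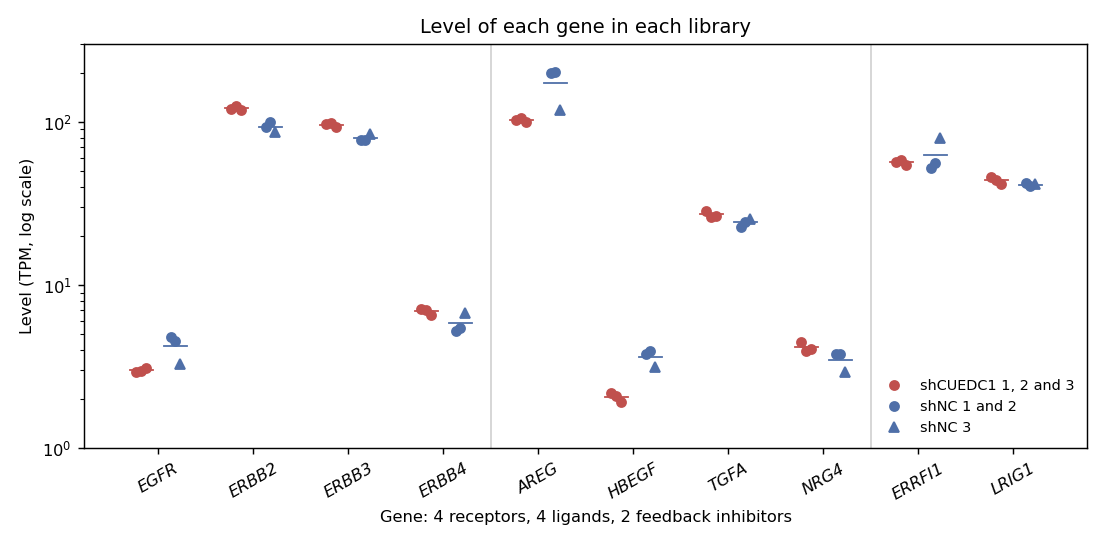
Level (TPM, log axis) of each of the 10 genes in each library, with shCUEDC1 in red on the left of each pair and shNC in blue on the right; lines are group means and the triangle is shNC 3. ERBB2, ERBB3 and AREG lie near or above 100 TPM in shCUEDC1, and AREG in shNC 3 (118 TPM) lies nearer to shCUEDC1 than to shNC 1 and 2.

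The levels of the 10 genes ran from 1.92 TPM (HBEGF in shCUEDC1 3) to 201 TPM (AREG in shNC 2). In shCUEDC1 the order was ERBB2 (122 TPM), AREG (103), ERBB3 (96.2), ERRFI1 (56.5), LRIG1 (43.9), TGFA (27.1), ERBB4 (6.89), NRG4 (4.17), EGFR (3.00) and HBEGF (2.07), and no neighbours in this order overlapped between libraries. In shNC, AREG came first at 173 TPM, ahead of ERBB2 (93.1) and ERBB3 (79.7). Among the genes of low level the shNC order was ERBB4 (5.84 TPM), EGFR (4.22), HBEGF (3.63) and NRG4 (3.50). In shNC the ranges of ERBB3 and ERRFI1 (62.6 TPM) overlapped, as did those of EGFR and HBEGF and of HBEGF and NRG4. AREG was the most abundant of these transcripts in shNC, and ERBB2 in shCUEDC1.

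Promoter sequence is shown for AREG and HBEGF, which had the lowest ratios of shCUEDC1 to shNC among the 4 ligands AREG, HBEGF, TGFA and NRG4. RefSeq windows (GRCh38.p14) were matched by gene identifier for 9 of the 10 genes, all except ERBB3. Each line gives the 250 bases before the RefSeq gene start, 5′ to 3′ on the strand of the gene, and whether T47D cells use that start was not measured. Capitals mark matches on either strand to 7 searched motifs: AP-2 (GCCNNNGGC), CRE (TGACGTCA), AP-1 (TGANTCA), the GC box (GGGCGG), ERE (GGTCA, NNN, then TGACC), FOXO (GTAAACA) and the TATA box (TATAAA).
AREG, chr4:74444886-74445135, plus strand: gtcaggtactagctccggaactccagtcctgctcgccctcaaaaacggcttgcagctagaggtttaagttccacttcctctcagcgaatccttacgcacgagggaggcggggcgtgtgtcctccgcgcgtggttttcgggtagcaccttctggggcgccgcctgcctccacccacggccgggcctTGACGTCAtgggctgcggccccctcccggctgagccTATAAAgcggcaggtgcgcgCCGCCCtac
HBEGF, chr5:140346604-140346853, minus strand: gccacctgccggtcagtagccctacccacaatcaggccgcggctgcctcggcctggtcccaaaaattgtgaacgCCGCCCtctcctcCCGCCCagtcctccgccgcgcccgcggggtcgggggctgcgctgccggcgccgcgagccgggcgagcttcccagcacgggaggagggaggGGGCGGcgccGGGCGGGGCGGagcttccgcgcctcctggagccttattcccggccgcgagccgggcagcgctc
The AREG window held a CRE that begins 65 bases before the start (position -65), a TATA box at -29 and a GC box at -9. Of all 35116 windows in the table, 1.65% held the CRE, 10.7% the TATA box and 42.6% the GC box. The HBEGF window held 5 GC boxes, 2 of which overlap. GC box letters also occurred in windows of EGFR, ERBB4, TGFA, ERRFI1 and LRIG1, and TATA box letters in windows of EGFR and NRG4. The ERBB2 window, not printed, held TGATTCA at -222, which matches the searched AP-1 letters only because any middle base was accepted. Those letters, TGANTCA, occurred in 6.57% of windows. In EGFR and LRIG1, 1 window each held TGAGTCA and TGACTCA (-232 and -136 in EGFR, -166 and -77 in LRIG1). The AP-2 letters, in 19.8% of all windows, occurred in 1 window each of EGFR, TGFA and LRIG1. For ERBB2 only 1 window (chr17:39687844-39688093) was searched. Any other start of ERBB2 was not covered, so a lack of AP-2 letters cannot be read from it. The ERE and FOXO letters, in 0.0399% and 2.98% of all windows, occurred in none of the 14 windows of the 9 genes. A match is a description of the letters and not evidence of binding.

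Among the receptors, ERBB2 (Entrez 2064; chromosome 17, 39687914 to 39730426, plus strand, GENCODE 29 on GRCh38) was at 120, 126 and 119 TPM in shCUEDC1 1, 2 and 3. It was at 93.1, 99.5 and 86.6 TPM in shNC 1, 2 and 3. Each shCUEDC1 library was above each shNC library, and shNC 3 was the lowest of the 6. In shCUEDC1 cells ERBB2 rose by 32.4%, with a 95% interval of 20.1% to 46.0%. On the log2 scale this is 0.41 with an SE of 0.0629 and an adjusted p of 0.00405 in edgeR. An exact two-sided permutation test gave p = 0.1, and no smaller p can come from 3 against 3 libraries. Its call held in each of the 6 fits that left out 1 library, with a log2 change of 0.35 to 0.46 and edgeR adjusted p of at most 0.0351.

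ERBB3 (Entrez 2065; chromosome 12, 56076799 to 56103505, plus strand), the partner of ERBB2 in the strongest mitogenic pair of the family, was at 97.1, 98.1 and 93.5 TPM in shCUEDC1. In shNC it was at 77.3, 77.4 and 84.4 TPM, and here shNC 3 was the highest shNC library. In shCUEDC1 cells ERBB3 rose by 23.7%, with a 95% interval of 14.7% to 33.5%. On the log2 scale this is 0.31 with an SE of 0.0490 and an adjusted p of 0.00450 in edgeR (exact permutation p 0.1). Without shNC 3 the log2 changes of ERBB2 and ERBB3 were 0.35 each. The ratio of ERBB2 to ERBB3 in TPM was 1.24, 1.28 and 1.27 in shCUEDC1 and 1.20, 1.29 and 1.03 in shNC, with an exact permutation p of 0.4. ERBB2 and ERBB3 together made up nearly all receptor transcripts: ERBB2 gave 53.4% ± 0.493 of the summed receptor TPM in shCUEDC1 and 50.9% ± 2.78 in shNC, and ERBB3 gave 42.3% ± 0.418 in shCUEDC1 and 43.6% ± 2.69 in shNC (SD, n = 3 each).

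EGFR (Entrez 1956; chromosome 7, 55019021 to 55211628, plus strand), the founding receptor of the family, was a minor transcript at 2.92, 2.98 and 3.11 TPM in shCUEDC1. It was at 4.80, 4.55 and 3.31 TPM in shNC. The library shNC 3 lay next to the shCUEDC1 libraries, and in normalised CPM the groups overlapped (13.3, 13.4 and 14.4 in shCUEDC1, against 21.6, 20.6 and 14.3 in shNC). The log2 difference was -0.46 (95% interval -0.78 to -0.14), which edgeR did not call (adjusted p = 0.0749, exact permutation p 0.2). DESeq2 called EGFR lower (adjusted p = 0.0386), and the other 8 alternatives that kept all libraries did not (adjusted p up to 0.132). Without shNC 3 EGFR fell by 0.62 in log2 units, with an interval of -0.80 to -0.44 and an edgeR adjusted p of 1.52e-06. EGFR gave 1.32% ± 0.0709 of the summed receptor TPM in shCUEDC1 and 2.31% ± 0.431 in shNC, and the groups did not overlap in this share (exact permutation p 0.1). ERBB2 had 38.2 to 42.2 times the TPM of EGFR in shCUEDC1 and 19.4 to 26.2 times in shNC.

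ERBB4 (Entrez 2066; chromosome 2, 211375717 to 212538841, minus strand), a neuregulin receptor linked to luminal differentiation, was at 7.14, 7.02 and 6.52 TPM in shCUEDC1. In shNC it was at 5.25, 5.48 and 6.78 TPM, so that shNC 3 lay within the shCUEDC1 range. The log2 difference was 0.27 (95% interval 0.08 to 0.46) and was not called (edgeR adjusted p = 0.0719). Without shNC 3 ERBB4 rose by 0.38 (95% interval 0.25 to 0.51, edgeR adjusted p = 2.58e-05). The 4 receptors summed to 228 ± 6.06 TPM in shCUEDC1 and 183 ± 3.60 TPM in shNC (SD, n = 3 each; exact permutation p 0.1), and the groups did not overlap.

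Among the ligands, AREG (Entrez 374; chromosome 4, 74445134 to 74455009, plus strand), amphiregulin, was at 103, 105 and 100.2 TPM in shCUEDC1. It was at 199, 201 and 118 TPM in shNC. Every shCUEDC1 library was below every shNC library, but shNC 3 differed from the mean of shNC 1 and 2 by -0.81 on the log2 CPM scale, where the shCUEDC1 libraries lay between -0.97 and -0.93. The log2 difference was -0.73 (95% interval -1.23 to -0.23) and was not called by edgeR (adjusted p = 0.0806, exact permutation p 0.1). DESeq2 called it lower (adjusted p = 0.0453), and the adjusted p of the other 8 alternatives with all libraries was up to 0.185. Without shNC 3 AREG fell by 0.95 (95% interval -1.04 to -0.85, edgeR adjusted p = 2.27e-16). That p-value rests on controls at 199 and 201 TPM, after the control nearest to shCUEDC1 was left out.

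HBEGF (Entrez 1839; chromosome 5, 140332843 to 140346631, minus strand), heparin-binding EGF-like growth factor, was the least abundant of the 10 genes in shCUEDC1, at 2.19, 2.09 and 1.92 TPM. It was at 3.77, 3.94 and 3.17 TPM in shNC. These levels rest on few reads, 48, 46 and 43 in the shCUEDC1 libraries and 84, 88 and 66 in the shNC libraries. In shCUEDC1 cells HBEGF fell by 42.1%, with a 95% interval of -55.8% to -24.2%. On the log2 scale this is -0.79 with an SE of 0.174 and an adjusted p of 0.0201 in edgeR (exact permutation p 0.1). The call was lost in 5 of the 6 fits that left out 1 library, each except the one without shNC 3, with an edgeR adjusted p between 0.0640 and 0.0919 and a log2 change between -0.82 and -0.72. It held under all 9 alternatives that kept the 6 libraries.

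TGFA (Entrez 7039; chromosome 2, 70447280 to 70554193, minus strand), transforming growth factor alpha, was at 28.6, 26.1 and 26.5 TPM in shCUEDC1 and 22.6, 24.4 and 25.6 TPM in shNC. Its groups did not overlap, by a narrow margin. The log2 difference was 0.19 (95% interval 0.05 to 0.33) and was not called (edgeR adjusted p = 0.0866). Without shNC 3 it rose by 0.22 (edgeR adjusted p = 0.00379). NRG4 (Entrez 145957; chromosome 15, 75935969 to 76059795, minus strand), a neuregulin specific to ERBB4, was at 4.51, 3.93 and 4.08 TPM in shCUEDC1 and 3.78, 3.79 and 2.92 TPM in shNC. NRG4 differed by 0.29 in log2 units, with an interval of -0.01 to 0.59 and an edgeR adjusted p of 0.206, and it was not called without shNC 3 either (0.21, adjusted p = 0.277).

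The make-up of the ligand transcripts differed with AREG. AREG gave 74.4%, 76.6% and 75.5% of the summed TPM of the 4 ligands in shCUEDC1 and 86.9%, 86.2% and 78.9% in shNC. TGFA gave 19.9% ± 0.854 in shCUEDC1 and 12.5% ± 4.01 in shNC (SD, n = 3 each). These 4 ligands (AREG, HBEGF, TGFA and NRG4) summed to 138, 137 and 133 TPM in shCUEDC1, against 230, 233 and 150 TPM in shNC. The sum leaves out other ligands, such as EGF, which averaged 15.5 TPM in shCUEDC1 and 16.1 TPM in shNC. Set against the receptors, the ratio of the TPM of these 4 ligands to receptor TPM was 0.607, 0.586 and 0.598 in shCUEDC1. It was 1.27, 1.25 and 0.827 in shNC. The groups did not overlap in any of these 4 measures (exact permutation p 0.1 each, the smallest possible), and shNC 3 was the shNC library nearest to shCUEDC1 in each. All 4 measures contain AREG, which edgeR did not call with the 6 libraries, so they are not separate results.

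**Figure D2:**
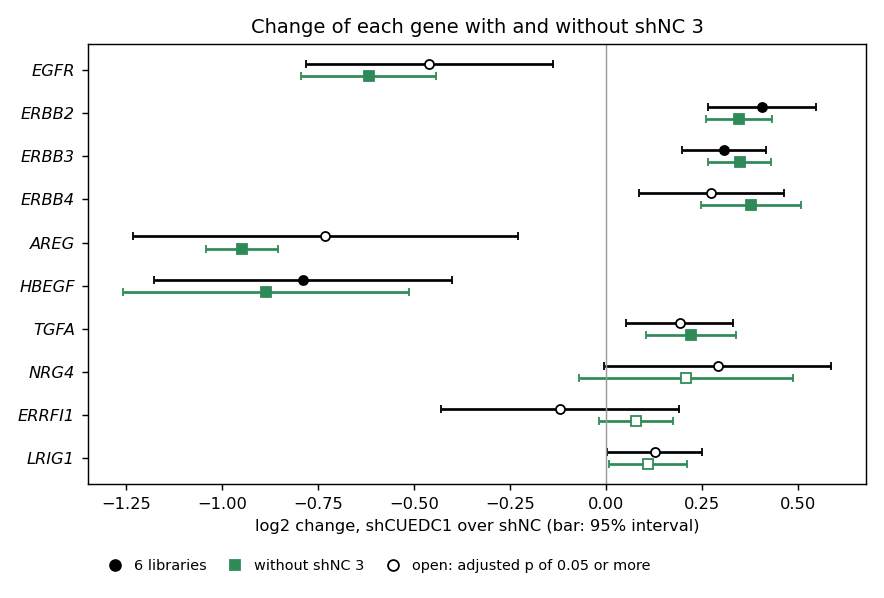
log2 change of each gene, shCUEDC1 over shNC, with 95% intervals, from all 6 libraries (circles) and without shNC 3 (squares); filled symbols have an edgeR adjusted p below 0.05. With 6 libraries 3 symbols are filled (ERBB2, ERBB3 and HBEGF), and without shNC 3 the intervals of AREG and EGFR are narrower and 7 symbols are filled.

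The 2 feedback inhibitors were not called in any fit. ERRFI1 (Entrez 54206; chromosome 1, 8004404 to 8026308, minus strand) was at 56.9, 58.1 and 54.5 TPM in shCUEDC1 and 52.5, 55.7 and 79.6 TPM in shNC. Only shNC 3 stood out, 0.52 above shNC 1 and 2 on the log2 scale. ERRFI1 differed by -0.12 in log2 units, with an interval of -0.43 to 0.19 and an edgeR adjusted p of 0.640, and 0.08 without shNC 3 (95% interval -0.02 to 0.17, adjusted p = 0.233), so its sign depended on that library. LRIG1 (Entrez 26018; chromosome 3, 66378797 to 66501263, minus strand) was at 45.8, 44.0 and 41.9 TPM in shCUEDC1 and 42.0, 40.3 and 41.6 TPM in shNC. LRIG1 differed by 0.13 in log2 units, with an interval of 0.004 to 0.25 and an edgeR adjusted p of 0.187.

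**Figure D3:**
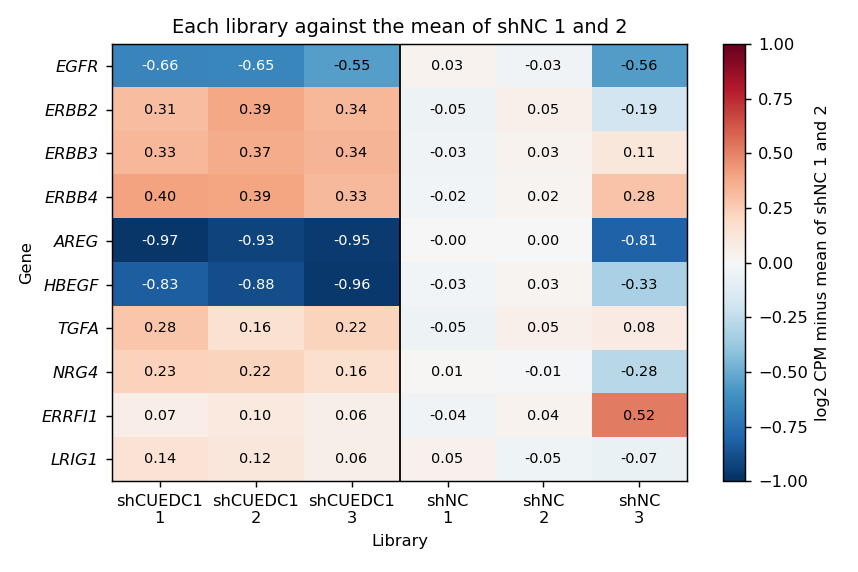
Normalised log2 CPM of each gene in each library minus the mean of shNC 1 and 2, with shCUEDC1 libraries left of the line. In shNC 3, AREG (-0.81) and EGFR (-0.56) lie near their shCUEDC1 values, ERBB2 (-0.19) and NRG4 (-0.28) lie on the other side of shNC 1 and 2 from shCUEDC1, and ERRFI1 (0.52) is high in shNC 3 alone.

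Relative to shNC 1 and 2, shNC 3 thus deviated in different directions among the 10 genes. For EGFR, ERBB4, AREG, HBEGF, TGFA and ERBB3 it lay on the side of the shCUEDC1 libraries (log2 -0.56, 0.28, -0.81, -0.33, 0.08 and 0.11). For ERBB2, NRG4 and LRIG1 it lay on the other side (-0.19, -0.28 and -0.07). ERRFI1 was 0.52 higher in shNC 3, while the shCUEDC1 libraries were 0.06 to 0.10 higher. The origin of these deviations was not tested.

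Other genes of the pathway were counted in 8 lists that hold 108 different genes, 101 of them tested. Of these, 13 rose and 6 fell, which is 18.8% of the tested genes, against 9.96% over all genes. Leaving out 1 library moved the number called from 19 to between 4 (without shCUEDC1 2) and 43 (without shNC 3). Without shNC 3, 28.1% of all genes tested were called, 14.3% higher and 13.8% lower. The counts of each list below stand beside these shares, 9.96% with the 6 libraries and 28.1% without shNC 3. No list count was tested against them. These lists were made with earlier results of the same data known and are given as a description.

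Among the other ligands, edgeR called 0 of 6 tested, with 2 of them at an unadjusted p below 0.05. DESeq2 called 1, EPGN, and limma-voom 0. EPGN (epigen) and EGF were the most abundant, with EPGN at 4.51, 5.46 and 3.89 TPM in shCUEDC1 and 11.0, 11.0 and 4.23 TPM in shNC. EREG (epiregulin), named here after its values were seen, was at 1.27, 0.86 and 0.79 TPM in shCUEDC1 and 2.59, 2.72 and 0.81 TPM in shNC. EPGN and EREG lie on chromosome 4 near AREG, EPGN from 74308473 to 74315307 and EREG from 74365143 to 74388751, on the same strand. All 3 had lower values in shNC 3 than in shNC 1 and 2, with log2 differences of -1.43 for EPGN, -1.77 for EREG and -0.81 for AREG. The log2 differences of EPGN and EREG were -0.92 and -1.06 (edgeR adjusted p = 0.162 and 0.181). Without shNC 3 they fell by 1.25 and 1.44 (edgeR adjusted p = 1.15e-09 and 3.39e-07). BTC (betacellulin), on the opposite strand at 74744759 to 74794686, was at 4.38, 4.90 and 3.84 TPM in shCUEDC1 and 4.09, 4.03 and 4.38 TPM in shNC. EGF averaged 15.5 ± 0.772 TPM in shCUEDC1 and 16.1 ± 1.77 TPM in shNC (SD, n = 3 each).

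Of 7 tested genes of ligand release, which cut EGFR ligands from the membrane or control that step, 1 was called, and 1 higher and 4 lower without shNC 3. TIMP3, an inhibitor of the shedding proteases, fell to 1.57 ± 0.0850 TPM in shCUEDC1, against 5.39 ± 0.503 TPM in shNC (SD, n = 3 each), a log2 change of -1.75 (edgeR adjusted p = 7.02e-05) that was called in every fit leaving out 1 library.

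Of 16 adaptors that bind the activated receptors, 2 were called, both higher, and 5, all higher, without shNC 3. GAB1, a docking protein that recruits PI3K, rose by 0.30 (edgeR adjusted p = 0.0134) and CRKL by 0.24 (adjusted p = 0.0271), and each lost its call in 4 of the 6 fits that left out 1 library, with a highest adjusted p of 0.0729 and 0.132.

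Genes of receptor turnover, which mark receptors with ubiquitin, sort them in endosomes or return them to the surface, had 6 called members among 24 tested, all higher in shCUEDC1 with the 6 libraries. Without shNC 3, 8 were called higher and 4 lower (STUB1, USP8, TSG101 and ERBIN, named after their values were seen). In normalised CPM the groups did not overlap for 9 of them higher and 6 lower in shCUEDC1. Over all genes tested, 15.7% did not overlap and were higher, and 15.6% were lower. The median log2 change of the list was 0.02. WWP1, a ubiquitin ligase of the NEDD4 family, rose to 88.1 ± 3.86 TPM in shCUEDC1, against 62.2 ± 7.53 TPM in shNC (log2 change 0.54, edgeR adjusted p = 0.00218). RAB11A, a small GTPase of recycling endosomes, rose by 0.30 (adjusted p = 0.00489), its effector RAB11FIP1 by 0.26 (0.00713) and the ligase NEDD4 by 0.21 (0.0265). WWP1 and RAB11A kept their calls in all 6 fits that left out 1 library. RAB11FIP1 lost its call in 2 of them (adjusted p up to 0.0587) and NEDD4 in 5 (up to 0.130).

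Of 9 other inhibitors tested, 1 was called, and 1 higher and 1 lower without shNC 3. LRIG3, a relative of LRIG1, rose by 0.35 (edgeR adjusted p = 0.0138), but its call was lost in 3 of the 6 fits that left out 1 library (adjusted p up to 0.0803). Genes that respond to ERK had 1 rise and 1 fall among 15, and 2 of each without shNC 3. The phosphatase DUSP5 rose by 0.28 (adjusted p = 0.0323) and SPRED1, an inhibitor of RAS signalling, fell by 0.51 (0.0203). The 2 calls were lost in 5 and 4 of the 6 fits (adjusted p up to 0.143 and 0.107). The median log2 change of this list was -0.24, and -0.08 without shNC 3.

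The neighbours of ERBB2 in chromosome band 17q12 had 1 rise and 1 fall among 9 tested, and as many without shNC 3. ORMDL3 rose by 0.26 (edgeR adjusted p = 0.0237) and PPP1R1B fell by 1.00 at a low level (0.0107). Without shCUEDC1 2 their adjusted p was 0.120 and 0.0667. MIEN1 and PGAP3 share exonic bases with ERBB2 on the opposite strand in GENCODE 29, 571 and 194 bases, and the sources used here do not say whether reads were counted by strand. MIEN1 and PGAP3, named for this overlap, differed by -0.03 and 0.09 (edgeR adjusted p = 0.827 and 0.665). Likewise NRG4 shares 1917 exonic bases with FBXO22 (log2 difference -0.14) and LRIG1 shares 907 with SLC25A26 (0.02), so reads of these pairs could not be told apart with certainty.

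Transcription factors known to act on ERBB genes had 2 rises and 3 falls among 16, and 8 rises and 3 falls without shNC 3. TFAP2B, of the AP-2 family, fell to 1.44 ± 0.153 TPM in shCUEDC1, against 3.98 ± 0.800 TPM in shNC (log2 change -1.47, edgeR adjusted p = 0.00154). TFAP2A, of the same family and more abundant, fell by 0.20 (0.0206), FOXO3, a known activator of ERBB3 transcription when AKT is inhibited, by 0.40 (0.0288), and YAP1, the Hippo pathway coactivator, rose by 0.33 (0.0255). FOXO4, a relative of FOXO3 named after its values were seen, rose by 0.62 (edgeR adjusted p = 0.0311). TFAP2B kept its call in all 6 fits that left out 1 library. The other 4 lost theirs in 3 to 5 fits, with a highest adjusted p of 0.144 (FOXO4 without shCUEDC1 2).

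**Figure D4:**
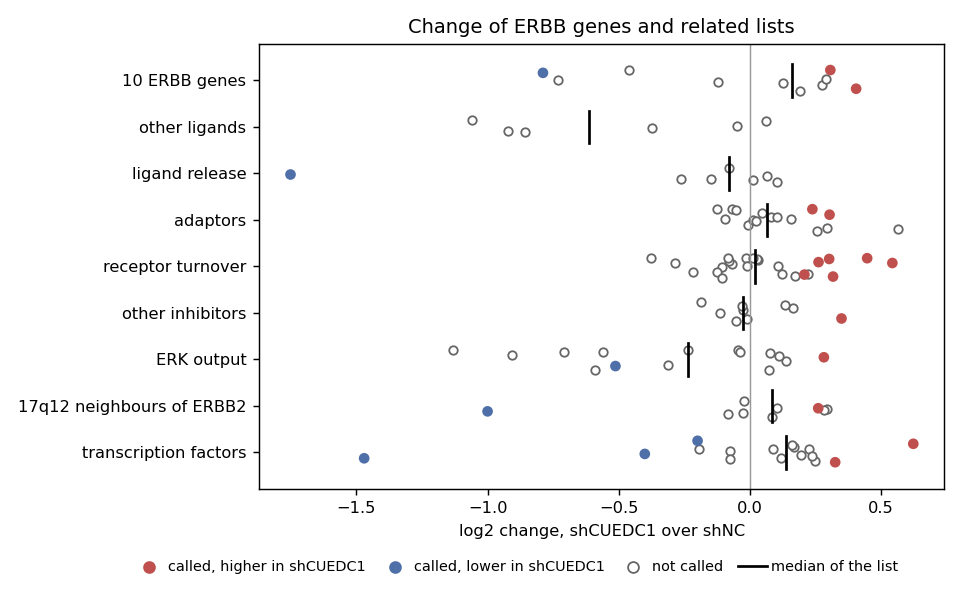
log2 change, shCUEDC1 over shNC, of each tested gene (points, spread vertically at random) in the 10 ERBB genes and 8 related lists; red and blue points are called higher and lower, open points are not called, and black lines are medians. In receptor turnover the 6 genes called with all libraries are higher (8 higher and 4 lower without shNC 3), and the largest called fall is that of TIMP3 in ligand release (-1.75).

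The genes most like the 2 called receptors were found among the 8992 genes that averaged 10 TPM or more, by the root mean square difference of log2 CPM relative to the shNC mean over the 6 libraries. For ERBB2 they were LASP1 (0.0174), GPRC5A (0.0299) and BCAS4 (0.0348). LASP1 lies on the same chromosome 17, from 38869859 to 38921770, and was at 593, 618 and 601 CPM in shCUEDC1 and 472, 491 and 412 CPM in shNC, so that shNC 3 was the lowest library as for ERBB2. For ERBB3 they were MPZL3 (0.00973), BIRC2 (0.0236) and EZR (0.0254), and shNC 3 was the highest shNC library for each. The place of shNC 3 in these genes and in LASP1 follows from their choice by likeness over the same 6 libraries. MPZL3 was at 51.0, 53.0 and 51.8 CPM in shCUEDC1 and 39.8, 41.3 and 43.8 CPM in shNC.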

How the data were processed

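T47D libraries were made by the submitters from poly(A)-selected RNA with random-primed cDNA, per the labels' protocols. Per the submitters' processing notes, the genome was GRCh38, patch p13; no aligner, counter or strand setting is named there or in the labels. The authors deposited estimated counts per gene (fractional, with 21.8% to 24.7% whole values at a tolerance of 1e-09), FPKM values (the authors' levels per gene length and depth), TPM values at 2.01 to 2.10 times FPKM, depending on the library, and a signal column, deposited as counts divided by 1 size factor per library, which was not used.

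Estimated counts were rounded, filtered with filterByExpr (minimum count 10), normalised by TMM and compared by the robust quasi-likelihood test of edgeR 4.0.16 under R 4.3.3; p-values were adjusted by Benjamini and Hochberg's method across the genes tested. Exact permutation tests used 3 against 3 libraries. Alternatives were RLE factors, 2 other filters, DESeq2 1.42.0, limma 3.58.1 (voom, and trend on log2 of FPKM + 0.5, TPM + 1 and TPM + 0.1), a replicate block and leaving out each library. From each related list up to 4 called genes with the smallest p are named, or else the 2 most abundant, and for each called receptor the 3 most similar genes. The members and lists were chosen with earlier results of these data known.

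The edgeR step was tested on simulated counts with known changes, where it recovered most but not all of the changed genes and the share of unchanged genes among its calls was above the nominal 5%. No 2 libraries agreed within sampling noise (chi-square per degree of freedom of at least 2.26).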

Additional observations from a re-analysis of the deposited data

How the results depend on the processing

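With all 6 libraries kept, 9 alternatives left ERBB2, ERBB3 and HBEGF called and the direction of all 10 genes as it was. DESeq2 called 3 genes lower instead of 1, adding EGFR (-0.46) and AREG (-0.73). Leaving out 1 library gave 468 to 3925 called genes over all (1377 with all libraries), 2 to 4 of the 10 genes higher, 0 to 3 lower and 4 to 43 of the related genes called. Over those fits the log2 change ranged from -0.62 to -0.35 for EGFR, 0.22 to 0.38 for ERBB4, -0.95 to -0.60 for AREG, -0.89 to -0.72 for HBEGF and 0.15 to 0.22 for TGFA. It ranged from -0.22 to 0.08 for ERRFI1, whose sign turned without shNC 3 (0.078). The fit without shNC 3 was the only one that called more genes over all than the 6 libraries. The replicate block gave 1117 called genes over all and the same 3 of the 10 genes. No pairing by replicate number was seen: same-numbered libraries correlated at 0.004, 0.07 and 0.03 in their deviations. Not every library correlated best with its own number. With 3 libraries per group and shNC 3 apart from shNC 1 and 2, these values cannot exclude a pairing. The levels of HBEGF (43 to 88 reads per library) and NRG4 (86 to 126) rest on few reads, which limits their precision.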
